A study of Homo sapiens with 8 samples.

Results

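Chromosome 2 was examined here as 21879 windows of 100 kb, which are all the chromosome 2 windows among the 278316 windows of the series (7.86%). The windows come in 9 sets shifted by 10 kb, with 2431 chromosome 2 windows a set, so neighbouring windows of different sets cover much the same DNA and are not replicates. The chromosome was chosen by position, and its number was taken from the deposited window coordinates on the hg19 build. SON TSA-seq was carried out in 786-O cells, an established human clear cell renal carcinoma line that lacks functional VHL and makes HIF-2α. The cells were grown at atmospheric oxygen, and 1 group received the DMSO vehicle while the other received 2 µM PT2399, each for 3 h. Each treatment had 2 SON pulldown libraries and 2 input libraries, 8 libraries in all, and nothing in the labels says whether replicates came from separate cultures, so the deposited p-values may measure technical spread only. In 4 of the 8 libraries the title disagreed with the antibody or treatment field, and titles were followed. The direction of every change also rests on the deposited column names, with DMSO read as the control.

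Nuclear speckles are bodies of the nucleus rich in splicing factors, and SON is a protein of their core. In TSA-seq an antibody-bound peroxidase spreads tyramide-biotin from SON into its surroundings, so DNA that lies near a speckle is pulled down more often than DNA far from one. Gene-rich chromatin tends to lie near speckles, and gene-poor chromatin tends to lie far from them. PT2399 keeps HIF-2α from pairing with ARNT and so from binding its hypoxia response elements, whose core reads ACGTG or GCGTG.

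For each window the authors gave a log2 concentration of SON signal as 1 mean per treatment. Libraries were not analysed singly here, so levels carry no standard deviation, and their depth is unknown. Windows were called measured when both treatments had a log2 concentration of at least 2. Windows whose mean concentration was below 0 were at or next to the floor of the tables, which was -0.07 for DMSO and -0.11 for PT2399, and no fold is given against a group at the floor. A window was called lower or higher where the FDR in the authors' deposited table was at most 0.01.

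Sequences can be shown here for genes of the authors' deposited lists of genes in lower windows, but not for the windows themselves, since the sequence tables are of another build. CHST10, a sulfotransferase that completes the HNK-1 carbohydrate, and TMBIM1, a membrane protein of the Bax inhibitor motif family, were named in both the 100 kb and the 50 kb list. Their promoters are shown because both window sizes gave them a listing. The sequences run from 250 bases before to 50 bases after a RefSeq start on GRCh38.p14, on the minus strand, with capitals marking ACGTG or GCGTG on either strand (CACGT or CACGC when read from the other strand). For TMBIM1 the start with 3 matches is shown out of 3 starts, and the other 2 had 0 matches. Its CACGTG reads the same on both strands and was counted as 2 of the 3 matches, so they lie in only 2 places.
CHST10, chr2:100417619-100417918, minus strand: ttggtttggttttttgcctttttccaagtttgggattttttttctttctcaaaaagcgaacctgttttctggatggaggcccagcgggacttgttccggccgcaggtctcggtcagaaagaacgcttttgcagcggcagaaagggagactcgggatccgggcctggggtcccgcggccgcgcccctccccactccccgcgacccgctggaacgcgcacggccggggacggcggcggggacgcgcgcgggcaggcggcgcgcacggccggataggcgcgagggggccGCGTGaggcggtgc
TMBIM1, chr2:218289947-218290246, minus strand: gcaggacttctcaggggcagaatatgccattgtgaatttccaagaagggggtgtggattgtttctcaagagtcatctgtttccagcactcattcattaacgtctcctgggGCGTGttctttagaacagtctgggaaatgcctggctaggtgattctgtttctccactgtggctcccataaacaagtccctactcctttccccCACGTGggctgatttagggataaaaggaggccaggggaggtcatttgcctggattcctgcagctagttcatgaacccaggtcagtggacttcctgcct
The CHST10 promoter held 1 match. Of the 35116 RefSeq promoters of this length, 48.4% held at least 1 match, against 46.5% of the 2764 on chromosome 2. Of the 49 chromosome 2 genes in either list, 39 had 67 promoters in the table, and 64.2% of these held a match. Their median GC content was 63.7%, against 58.7% for all promoters, and the part of base composition in the motif share was not tested. A match is a description of these letters only, and TSA-seq windows of this size do not resolve a promoter.
The 100 kb list also held MIR26B, whose mature RNAs are shown with the seed (bases 2 to 8) in capitals.
hsa-miR-26b-5p: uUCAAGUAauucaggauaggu
hsa-miR-26b-3p: cCUGUUCUccauuacuuggcu

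Most of chromosome 2 carried little SON signal. Of its windows, 66.2% were at the floor (66.0% to 66.5% over the 9 sets), against 60.4% of the windows of the other autosomes, 50.3% on chromosome 1 and 68.5% on chromosome 3. Measured windows numbered 6134, or 28.0% of the chromosome, against 34.1% on the other autosomes. Their median log2 concentration was 8.07 with DMSO and 7.99 with PT2399, against 8.72 and 8.61 on the other autosomes. Windows of the brightest class, at a DMSO level of 10 or more, made up 2.52% of chromosome 2 and 8.77% of the other autosomes. Chromosome 2 therefore had fewer bright windows and more floor windows than the other autosomes.

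The signal was laid out in long blocks. Among 25 bins of 10 Mb numbered from the short-arm end, 19 had more than 50% of their windows at the floor, and 5 had more than 90%. The highest levels were at the long-arm end, where bin 25 (240 Mb to the end, 279 windows) had no window at the floor and a median measured level of 10.04 (the mean of the treatments), and bin 24 (230 to 240 Mb) had 7.22% at the floor and a median of 8.98. Bin 3 (20 to 30 Mb) also had a median of 8.98, with 33.4% at the floor. Bins 8 and 9 (70 to 90 Mb) followed with 8.65 and 8.48.

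The darkest stretch lay in the long arm. Bins 15 (140 to 150 Mb) and 19 (180 to 190 Mb) were at the floor in 100% of windows, and the 2 measured windows of bin 16 and the 8 of bin 17 had median levels of 3.88 and 5.42. Bins 18, 20 and 14 came next with 6.20, 6.44 and 6.75. The longest unbroken run of floor windows was chr2:136640001-152180000, of 15.54 Mb, followed by chr2:178350001-191260000 of 12.91 Mb and chr2:161180001-171650000 of 10.47 Mb. Both arms held such runs, since chr2:75920001-84650000 was at the floor over 8.73 Mb and chr2:11980001-20180000 over 8.2 Mb.

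**Figure D1:**
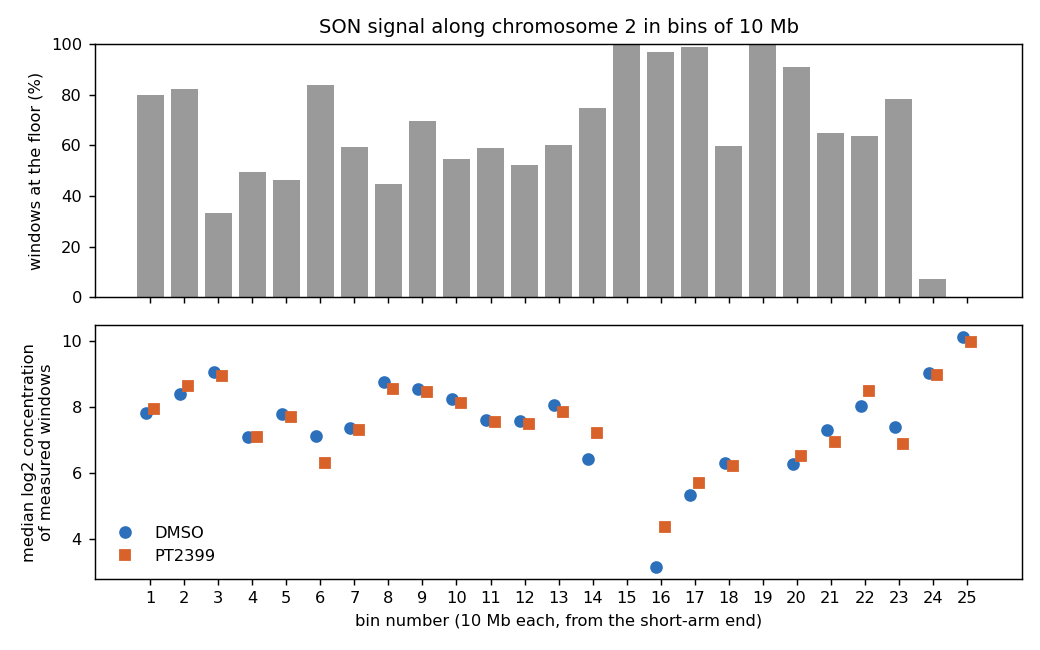
Share of 100 kb windows at the floor (top, percent) and median log2 concentration of measured windows with DMSO (circles) and PT2399 (squares) (bottom) in 25 bins of 10 Mb along chromosome 2, the last of them shorter. Bins 15 and 19 were wholly at the floor and have no level, and bin 25 had no window at the floor and the highest level.

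Between treatments the measured windows of chromosome 2 shifted slightly down. Their median change (PT2399 minus DMSO, log2) was -0.10, with quartiles of -0.37 and 0.21, and 59.5% of them had a change below 0. The 9 sets gave medians of -0.12 to -0.09. The other autosomes had a median of -0.13, quartiles of -0.33 and 0.07 and 68.3% below 0, and chromosomes 1, 3 and 10 had medians of -0.18, -0.07 and -0.07. No test was made between chromosomes, because neighbouring windows share DNA and no values per library were analysed.

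Since the measured windows of chromosome 2 were dimmer than those of the other autosomes together, they were also set against other autosomal windows matched on mean level, in strata 1 log2 unit wide and weighted by the numbers of chromosome 2 windows. The matched median change was -0.124 for the other autosomes and -0.080 for chromosome 2, which is a difference of 0.044. Of 22 autosomes treated in the same way, chromosome 2 ranked 9, and 13 autosomes had a difference above 0. In 7 strata with at least 100 chromosome 2 windows, the chromosome 2 median was the less negative in 5.

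Along the chromosome, 20 bins had at least 100 measured windows, and their median change was below 0 in 15, above 0 in 3 and 0 in 2. The highest was bin 14 (130 to 140 Mb) at 0.41, where 107 measured windows had a median level of 6.41 with DMSO and 7.21 with PT2399, and the sets ranged from 0.08 to 0.92. Bins 2 and 7 followed at 0.04 and 0.01. The lowest was bin 6 (50 to 60 Mb) at -0.42, with 100 measured windows at 7.12 and 6.28 and sets of -1.05 to -0.28, followed by bin 18 (170 to 180 Mb) at -0.32 and bin 9 (80 to 90 Mb) at -0.27. Bins 6, 14 and 18 at these extremes were dim bins with 59.8% to 83.7% of their windows at the floor.

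**Figure D2:**
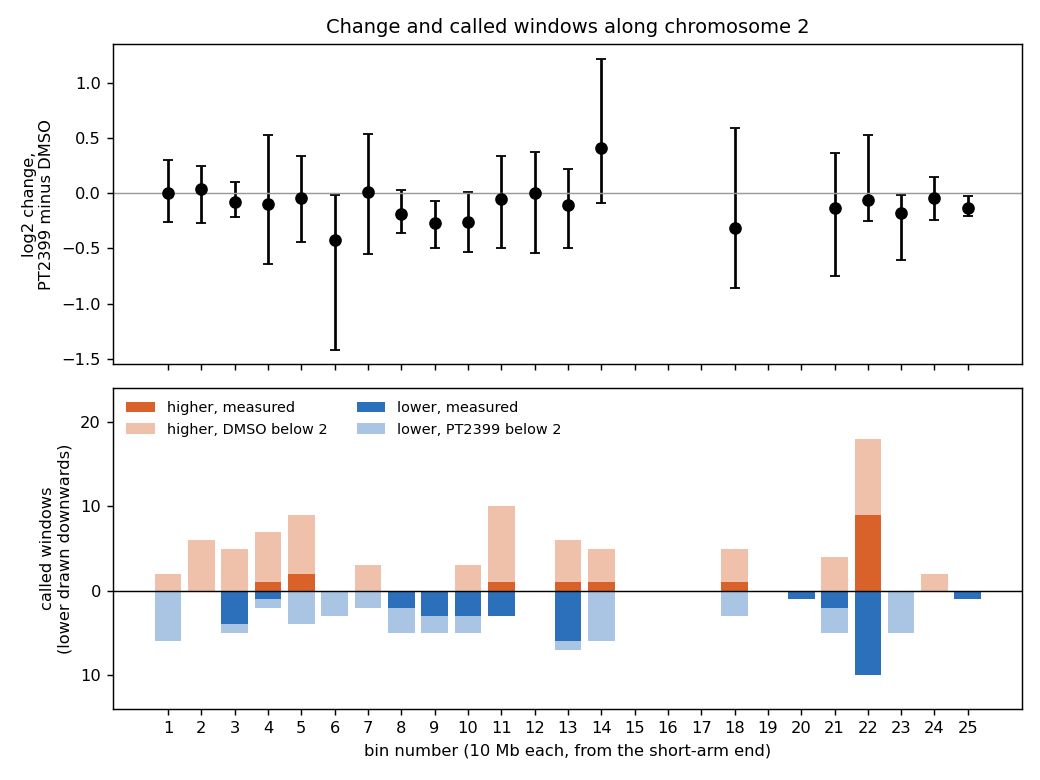
Median log2 change (PT2399 minus DMSO) of measured windows with its quartiles as bars, for bins with at least 100 measured windows (top), and numbers of windows called at the authors' FDR of at most 0.01, higher upwards and lower downwards (bottom), by 10 Mb bin of chromosome 2. Bin 14 had the highest median change at 0.41, and bin 22 held the most calls, with 18 higher and 10 lower.

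Higher calls were more numerous on chromosome 2 than on any other autosome. Over all its windows, 85 were higher (0.389%, where 0.139% of all windows of the series were higher) and 78 were lower (0.357%, where 0.614% of all windows were lower). Higher calls made up 52.1% of the calls on chromosome 2 and 15.5% of those on the other autosomes together, but the share was larger on chromosomes 3 (67.6%), 18 (64.3%) and 4 (58.8%), which had fewer calls. The next highest numbers of higher windows were 68 on chromosome 10 and 34 on chromosome 7. After matching on level, the other autosomes had 0.129% higher, so that the ratio for chromosome 2 was 3.02, and 0.396% lower, with a ratio of 0.90. Among 22 autosomes chromosome 2 ranked 2 in the ratio for higher windows, after chromosome 10 at 3.19, and 10 in that for lower windows.

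Most of the higher calls began from almost no signal. In 63 of the 85 higher windows DMSO was at the floor, and in 36 of the 78 lower windows PT2399 was at the floor. Restricted to measured windows, 16 were higher (0.261%, where 0.0853% of measured windows of the series were higher) and 36 were lower (0.587%, where 1.55% were lower). The matched shares on the other autosomes were 0.0957% higher and 1.03% lower, which gave ratios of 2.73 and 0.57 and ranks of 3, after chromosomes 4 (3.63) and 15 (2.75), and 16 of 22. Of the 16 measured higher windows, 9 lay in the stretch from 216 to 218 Mb. Outside it 7 were left, or 0.116% of measured windows, which was 0.021 percentage points above the matched share. That stretch was chosen for its higher calls and none was removed from the other autosomes, so the excess falls in part by construction. The split also depended on where the change is centred: with each set recentred on its own median change, which moved the chromosome 2 median from -0.10 to 0.02, 14 measured windows were higher and 5 lower. Without the minimum, 67 higher windows lay outside that stretch, or 0.309%, which was 0.182 percentage points above the matched share.

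**Figure D3:**
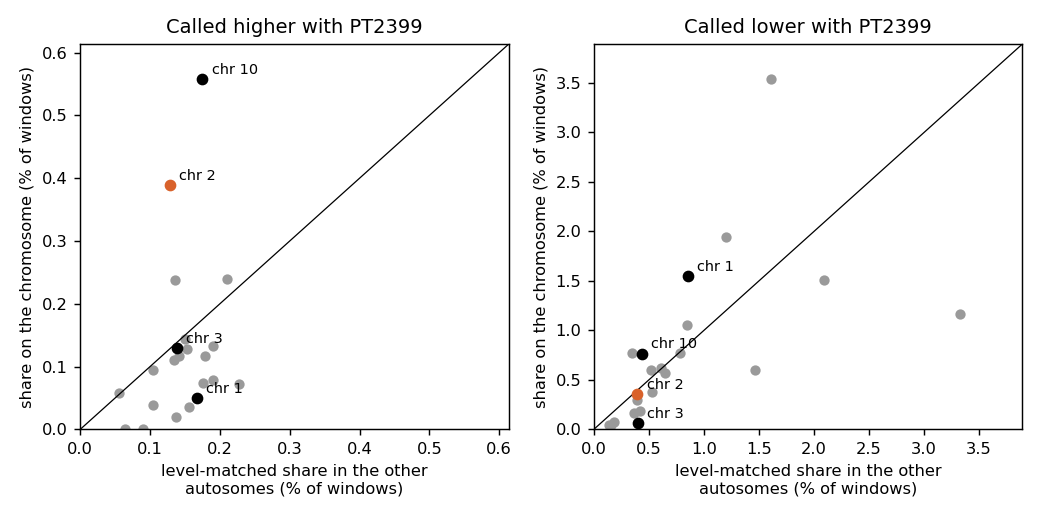
Percent of all 100 kb windows called higher (left) or lower (right) with PT2399 on each of 22 autosomes, against the percent in the other autosomes matched on mean level. The line marks equal shares. Chromosome 2 lay above the line for higher windows (0.389% against 0.129%) and slightly below it for lower windows (0.357% against 0.396%).

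Called windows that overlapped were merged into regions, and the values given for a region are those of its window of lowest FDR. The 36 measured lower windows formed 17 regions that covered 2.05 Mb, and the 16 measured higher windows formed 10 regions that covered 1.08 Mb. Of these, 10 lower and 7 higher regions rested on a single window, and 2 lower and 0 higher regions were called in at least 5 of the 9 sets. The lower and higher regions differed in starting level. Of the lower regions 12 had a DMSO level of at least 8, whereas all 10 higher regions started from 2.57 to 7.70, with 7 of them below 6. The regions were picked by the FDR of PT2399 minus DMSO. This contrast in DMSO level is thus set in part by the call and is no separate result. After recentring, 3 of the 17 lower and 8 of the 10 higher regions were called.

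**Figure D4:**
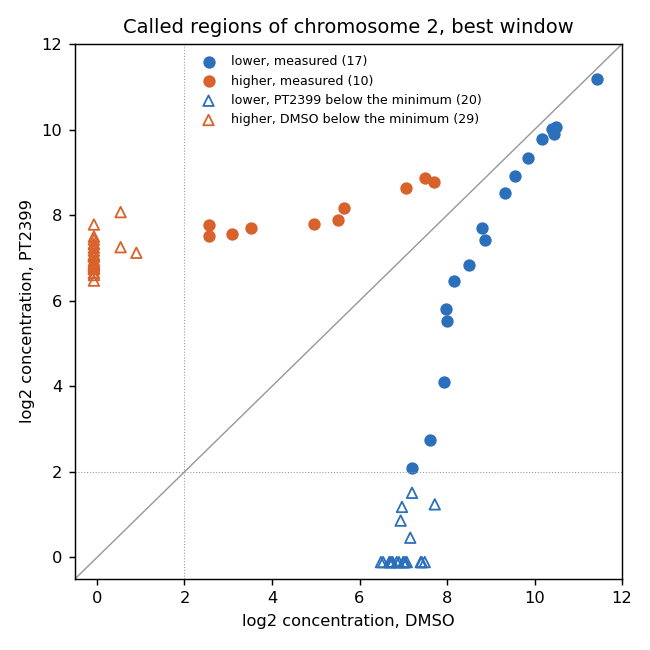
Log2 concentration with PT2399 against DMSO in the window of lowest FDR of each called region of chromosome 2. Filled circles are measured regions (17 lower, 10 higher), and the dotted lines mark the minimum of 2. Open triangles are regions with 1 treatment below that minimum (20 lower, 29 higher), some of which overlap measured regions. Bright regions fell by little, and the higher regions started at 7.70 or below.

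The bright lower regions fell by small amounts. The 8 measured lower regions with a DMSO level of at least 9 had changes of -0.81 to -0.24 (median -0.46), and the 9 dimmer ones had changes of -5.11 to -1.09 (median -2.18). Over the measured windows of chromosome 2, the quartiles of change lay 1.72 apart at mean levels of 6 to 7 and 0.15 apart at 10 to 11. With that wider spread, small changes in dim windows could hardly pass the FDR, so the contrast is set in part by the call. The most widely supported lower region was chr2:219110001-219380000, which 10 windows of 8 sets called. Its level was 10.44 with DMSO and 9.90 with PT2399 in the authors' deposited table, a change of -0.54 with an FDR of 0.000111, and every window that overlapped the best one by at least 50 kb fell within -0.54 to -0.32. The PT2399 level was thus 68.8% of the DMSO level on the linear scale. This region was not called after recentring.

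Other bright regions were called in fewer windows. The region chr2:27250001-27360000 was the brightest, at 11.43 and 11.19, with a change of -0.24 and an FDR of 0.00739 in the authors' deposited table. Its change was the smallest among the 17. The regions chr2:97370001-97510000 (10.39 to 10.02, FDR 0.00566) and chr2:85610001-85720000 (10.18 to 9.78, FDR 0.00611) fell by 0.37 and 0.40 in the authors' deposited table. Close to the latter, chr2:85470001-85570000 went from 9.55 to 8.91, and chr2:74830001-74930000 from 9.32 to 8.51, with FDRs of 0.00443 and 0.00266 in the authors' deposited table. These regions shared high levels in both treatments, at 8.51 or more, and none of them was called after recentring.

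The dimmer lower regions lost more of their signal. The second region called in more than 5 sets was chr2:128130001-128310000, with 8.87 and 7.43, a change of -1.44 and an FDR of 0.000205 in the authors' deposited table, called in 6 sets and also after recentring. The windows that overlapped its best window ranged from -1.66 to -0.17. In the 50 kb windows the lowest FDR there was 3.18e-11 in the authors' deposited table, for a window that went from 7.95 to 1.85, below the minimum. The lowest FDR among measured regions in the 100 kb windows was that of chr2:24170001-24280000, at 6.35e-06 in the authors' deposited table, where the level went from 7.93 to 4.11 in 2 sets, and it too was called after recentring.

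Several more dim regions were each called in few sets. The largest fall was at chr2:202230001-202360000, from 7.21 to 2.10, where the authors' deposited table gave an FDR of 0.00423, and PT2399 was at the floor in the called windows around chr2:202240001-202350000, where DMSO was 7.40. At chr2:100970001-101070000 the level went from 7.60 to 2.74, and at chr2:102680001-102780000 from 7.99 to 5.53, with FDRs of 0.00136 and 0.000968 in the authors' deposited table. Between these and the bright regions lay chr2:96580001-96680000 (8.17 to 6.45, FDR 0.00693), chr2:105980001-106080000 (8.51 to 6.84, FDR 0.00771) and chr2:38410001-38510000 (8.79 to 7.70, FDR 0.00215), all in the authors' deposited table. In 16 of the 17 lower regions, all windows that overlapped the best one by at least 50 kb had the sign of the call. Such windows share much of their DNA with the best one, so this agreement follows in part from the overlap and is no separate support.

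The higher regions ended within a narrow band of PT2399 levels. Across the 10 measured higher regions the PT2399 level was 7.52 to 8.87, while the change was 1.08 to 5.19 (median 2.67). To pass the FDR from a dim DMSO level, a window needed a high PT2399 level, so the band is set in part by the call. The change is PT2399 minus DMSO and the regions were picked by its FDR. A larger rise from a lower DMSO level thus follows by subtraction and is no separate result. The steepest was chr2:217750001-217870000, from 2.57 to 7.76, with calls in 3 sets and 0.00012 as its FDR in the authors' deposited table. Next came chr2:171760001-171860000, from 2.57 to 7.52, with an FDR of 0.00132 in the authors' deposited table. At chr2:131710001-131810000 the level went from 3.08 to 7.55, and at chr2:109510001-109610000 from 3.51 to 7.70, with FDRs of 0.00886 and 0.00795 in the authors' deposited table. These 4 regions began below 4. In each of them DMSO was at the floor of -0.07 in at least 1 window that overlapped the best one by at least 50 kb. Each also overlapped a called region with DMSO below the minimum, so the size of these rises depends on where the window falls.

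The other 6 higher regions started between 4.97 and 7.70. They were chr2:120110001-120210000 (4.97 to 7.79, FDR 0.00147), chr2:45010001-45110000 (5.50 to 7.88, FDR 0.00587) and chr2:37740001-37840000 (5.65 to 8.17, FDR 0.00236), as given in the authors' deposited table. The level at chr2:46260001-46360000 went from 7.07 to 8.63, with an FDR of 0.00437 in the authors' deposited table. The last were chr2:217480001-217600000 (7.50 to 8.87, FDR 0.00397) and chr2:217200001-217340000 (7.70 to 8.78, FDR 0.00443) in the authors' deposited table, whose overlapping windows ranged from 0.63 to 1.37 and from 0.41 to 1.49. In 9 of the 10 regions, all windows that overlapped the best one by at least 50 kb had the sign of the call. Here too the agreement follows in part from the shared DNA.

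Regions with 1 treatment below the minimum were more numerous among the rises, with 29 higher and 20 lower regions. Some of them overlap measured regions, as chr2:109520001-109680000 overlaps chr2:109510001-109610000, and are not further loci. Merged with the measured regions, there were 33 higher and 35 lower regions. In 26 of the 29, DMSO was at the floor in the best window, and PT2399 reached 6.47 to 8.07. The lowest FDR of the called regions in 100 kb windows was that of chr2:11470001-11630000, at 1.75e-09 in the authors' deposited table, where DMSO was 0.54 and PT2399 was 8.07 and 6 sets called it. The region chr2:109520001-109680000 was called in 7 sets, with DMSO at the floor, PT2399 at 7.78 and an FDR of 1.2e-06 in the authors' deposited table. DMSO was also at the floor at chr2:100900001-101000000 (PT2399 7.43, FDR 4.14e-05), chr2:31360001-31480000 (7.50, FDR 5.41e-05) and chr2:171740001-171850000 (7.33, FDR 8.02e-05) in the authors' deposited table. The sign was not steady at chr2:100900001-101000000, where 8 of 10 overlapping windows were higher and 2 were lower, with -1.01 as the lowest change.

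Among lower regions of that kind, PT2399 was at the floor in 15 of 20, and DMSO was 6.49 to 7.72. The region chr2:8570001-8730000 was called in 6 sets and went from 7.72 to 1.24, with an FDR of 9.09e-07 in the authors' deposited table. PT2399 was at the floor at chr2:54610001-54730000 (DMSO 7.49, FDR 2.52e-05), chr2:134300001-134420000 (7.42, FDR 2.54e-05) and chr2:202240001-202350000 (7.40, FDR 0.00012), and it was 0.46 at chr2:72840001-72960000 (DMSO 7.16, FDR 0.00025), all in the authors' deposited table. The levels reached in the higher regions and those lost from these lower regions lay in about the same range. With 1 treatment near the floor, a window needed a high level in the other to pass the FDR. The similar ranges are thus set in part by the call and are no separate result.

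The jumps to and from the floor can be set beside how the tables behave between neighbouring windows of 1 treatment. For DMSO, 6092 pairs of windows shifted by 10 kb on chromosome 2 had at least 1 window at or above the minimum, and in 299 of them (4.91%, against 3.95% on the other autosomes) the other window was at the floor. The level beside such a floor window had a median of 3.80 and reached 8.04. For PT2399 the number was 338 of 6253 pairs (5.41%, against 4.25%), with a median of 3.67 and a highest level of 7.10. Where both windows were above the minimum, the median absolute difference was 0.13, against 0.09 on the other autosomes. Both medians lay below the 6.47 to 8.07 that PT2399 reached in the higher regions with DMSO below the minimum, while the highest levels lay inside that range. The part of these shifts in the calls was not tested.

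Rises clustered most between 216 and 218 Mb, which is the stretch of 2 adjacent megabases with the most higher windows and was chosen after its values were seen. From 217 to 218 Mb, 85 of 90 windows were measured, with a median level of 7.48 with DMSO and 7.89 with PT2399. Their median change was 0.50, and 13 windows of that megabase were called higher, 9 of them measured. From 216 to 217 Mb the median change of the 29 measured windows was 0.88, at 6.26 and 7.10. There 5 windows were called higher, 0 of them measured. In the whole segment 84 of the 106 measured windows that lay inside it were higher with PT2399, with a median of 0.66 that ranged from 0.14 to 0.99 over the sets. Of 943 autosomal tiles of 1 Mb with at least 45 measured windows, 12 had a median change of 0.50 or more, 2 of them among the 67 on chromosome 2. The cut of 0.50 is the median of 217 to 218 Mb itself. That tile is thus counted by construction, and the count is no separate support.

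The direction turned over the next megabases. From 218 to 219 Mb the median change was -0.12, and from 219 to 220 Mb it was -0.20, with 10.31 and 10.09 and 10 windows called lower, which are those of the region at 219 Mb described above. From 215 to 216 Mb all windows were at the floor. The rise therefore lay in the dim stretch between a dark block and a bright one, and the fall lay in the bright block. In the 50 kb windows the segment kept its direction, with 151 of 216 measured windows higher and a median of 0.48, but 0 of its measured windows were called by the authors' FDR. Windows with DMSO below the minimum were called higher there, at chr2:216270001-216320000, chr2:216655001-216720000 and chr2:217785001-217865000.

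**Figure D5:**
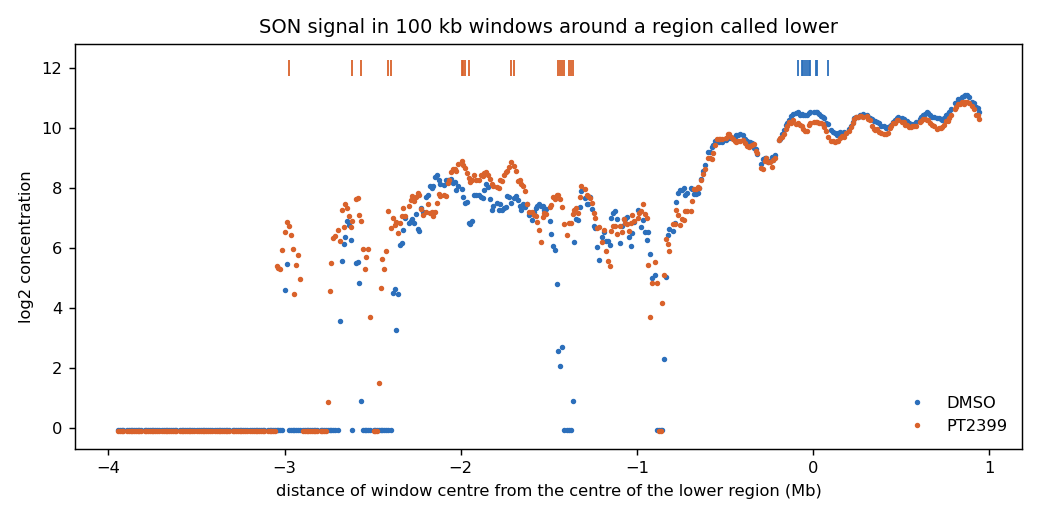
Log2 concentration in 100 kb windows with DMSO (blue) and PT2399 (orange) against the distance of the window centre from the centre of a lower region in bin 22, with ticks for windows called higher (orange) and lower (blue). To the left of the region lay the segment where 84 of 106 measured windows were higher with PT2399, and beyond it both treatments were at the floor.

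Some rises and falls lay close together. Of the 33 higher regions (with or without the minimum), 5 lay within 200 kb of a lower region, or 15.2%, against 15 of 135 (11.1%) on the other autosomes, and 9 lay within 1 Mb (27.3%, against 37.0%). The 5 higher regions with a lower region so near began at chr2:23730001, chr2:24300001, chr2:43670001, chr2:100900001 and chr2:105850001, and the gaps were 20 kb for the first 3, 0 for the next, where the regions overlapped, and 30 kb for the last. In all 5 DMSO was at the floor in the higher region. Among 244 tiles of 1 Mb, 27 held a higher call, 32 a lower call and 7 both. Bin 11 (100 to 110 Mb) held 10 higher and 3 lower windows, and bin 5 (40 to 50 Mb) held 9 and 4. Of the 25 bins, 12 held calls of both directions. These tile and bin counts have no share of the other autosomes beside them, so they say nothing on closeness.

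In the 50 kb windows, chromosome 2 had 19 measured lower windows (0.156%, where 0.357% of measured windows of the series were lower) and 4 measured higher windows (0.0329%, where 0.0291% were higher). The higher share was thus close to that of all measured windows at this window size. The lower windows formed 13 regions, of which 6 overlapped a lower measured region of the 100 kb windows (46.2%), and the higher ones formed 3, of which 0 overlapped a measured and 2 overlapped any higher region. The 3 were chr2:11500001-11555000 (3.83 to 7.68), chr2:9450001-9500000 (5.40 to 7.86) and chr2:122250001-122300000 (4.20 to 7.39). Without the minimum the 50 kb windows held 58 lower and 47 higher calls, and higher calls made up 44.8% of them, against 20.2% on the other autosomes.

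The authors' deposited list of lower windows named 36 of its 1403 windows of 100 kb on chromosome 2 and 19 of its 638 windows of 50 kb, and these were the measured lower windows counted above. Their list of genes in such windows held 45 chromosome 2 genes for the 100 kb windows, 40 of them protein-coding, which is 3.19% of the 1254 protein-coding genes of the chromosome against 4.57% on the other autosomes. In RefSeq gene order, with gaps of at most 10 genes, the 45 genes fell into 14 neighbourhoods, so they are not 45 independent cases. No genes in higher windows were listed in the tables used here, and genes could not be placed in windows without an annotation of the files' build.

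The largest neighbourhoods were on the long arm near TMBIM1 and on the short arm near KHK. The first held GPBAR1, a receptor for bile acids, AAMP, PNKD, TMBIM1, CATIP, SLC11A1, a divalent metal transporter of phagosomes, CTDSP1, a phosphatase of the RNA polymerase II tail, its intronic MIR26B, and VIL1, the villin of epithelial brush borders. The second held TMEM214, AGBL5, OST4, EMILIN1, a glycoprotein of elastic fibres, KHK, the ketohexokinase of fructose metabolism, CGREF1, ABHD1 and PREB. Another held the magnesium transport genes CNNM3 and CNNM4 with LMAN2L, ANKRD23 and MIR3127, and a further one held PROC, which encodes protein C of the anticoagulant system, with IWS1, MYO7B and MIR4783. Smaller ones held DCTN1, a dynactin subunit, with DCTN1-AS1, C2orf81 and WDR54, and M1AP with SEMA4F. The rest were TGOLN2, CAPG and SH2D6, then MFSD2B, WDCP and FKBP1B, then TRAK2 and STRADB, and FAHD2CP, CHST10, IL1R1 and FHL2 alone.

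The 50 kb list held 7 chromosome 2 genes, or 0.558% of the protein-coding genes there against 1.2% on the other autosomes. Among them were CHST10 and TMBIM1, which the 100 kb list also held, and FAM136A, SNRPG, MAP4K4 and NCKAP5. SNRPG encodes a core protein of the spliceosomal small ribonucleoproteins, and MAP4K4 a kinase upstream of JNK. Their listing shows only that a called lower window covered them, not that their expression changed.

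Genes of hypoxia signalling on the chromosome were not listed. Of 17 chromosome 2 genes of HIF-2 and hypoxia, 0 were in either list, including EPAS1, which encodes HIF-2α itself, TGFA, a growth factor, and HK2, a glycolytic hexokinase. The counts were also 0 of 14 for extracellular matrix and adhesion, with FN1, and 0 of 13 for renal genes, with PAX8 and LRP2. They were 0 of 25 for homeobox genes, with HOXD10, 0 of 15 for large neuronal and muscle genes and 0 of 9 for the UGT1A genes. The interleukin 1 family had 1 of 13 (IL1R1, in the 100 kb list) and splicing genes 1 of 10 (SNRPG, in the 50 kb list). IGFBP5, INHBB, LPIN1 and IDH1 were in neither list. Of the protein-coding genes of the chromosome, 3.19% were in the 100 kb list and 0.558% in the 50 kb list. Counts of 0 or 1 in lists of this size are too small to say anything particular of a list.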

How the data were processed

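SON TSA-seq pulldown and input libraries of 786-O cells were processed by the submitters. Bowtie2 and Picard, DiffBind and bedtools, and the hg19 build are named in the submitters' processing notes, without versions. For inputs and library scaling, the method used is not given in sources used here. The authors deposited log2 concentrations (control, treatment and mean) and a log2 fold per window, per the file headers. The deposited fold equals control minus treatment, so its sign was turned. Per the file headers, each window also has a p-value and an FDR, which were used as deposited. No count test was possible on these values, so the authors' FDR of at most 0.01 was the test. The minimum of 2 was chosen because the deposited lower list follows it. Called windows that overlapped by at least 1 bp were merged over the 9 sets. Other autosomes were matched on mean level by strata.

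As an alternative, folds were recentred on the median of each set, with a standard error implied by fold and p-value. Its code was tested on simulated data. Other alternatives changed the FDR threshold, adjustment, minimum, window size, set, strata and the chromosomes compared. Chromosome 2, the gene lists and the region rule were chosen with earlier results of these data known. The rule named measured regions of lowest FDR (all, or 15 a direction), 5 a direction below the minimum, genes of the 50 kb list, listed members of the gene lists and 11 chosen genes regardless. Some items that this rule names are not reported here. The other genes of the 100 kb list were named after the lists were seen. Gene names and neighbourhoods came from RefSeq tables of GRCh38.p14, which matched 982 of 1023 and 251 of 258 listed genes. Those tables' coordinates were not mixed with hg19. Analyses used pandas 2.3.3 and numpy 2.4.6 in Python 3.11.15, with matplotlib 3.10.9 for plots and scipy 1.17.1.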

Additional observations from a re-analysis of the deposited data

How the results depend on the processing

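Of 105 values under alternatives, 4 reversed and 38 moved, which for a count means by more than 1.5 times and for other values beyond the range of the 9 single sets. That range is wide for the shares, so the other 63 include values that differ in size. At an FDR of 0.05 there were 141 lower and 45 higher windows in 41 and 22 regions, at 0.1 there were 254 and 79 in 68 and 32, and at 0.001 there were 9 and 2 in 4 and 1. In 50 kb windows they were 19 lower and 4 higher windows, with 3 higher regions. A single set held 1 to 8 lower and 0 to 5 higher windows, in 1 to 8 and 0 to 5 regions. In at least 5 of 9 sets, 2 lower and 0 higher regions were called. Without the minimum there were 78 lower and 85 higher windows in 35 and 33 regions. A minimum of 4 left 10 higher windows in 6 regions, and a minimum of 6 left 7 in 3, which follows from the dim start of the higher windows.

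Recentring turned the median change from -0.10 to 0.02 and left 5 lower windows in 3 regions (chr2:24170001-24280000, chr2:102680001-102780000 and chr2:128130001-128310000), while 8 of the 10 higher regions kept their call. The lower calls therefore depend on where the median is set, and most of the 17 lower regions, including chr2:219110001-219380000, were not called after it. The share at the floor moved to 64.4% in 50 kb windows and 67.0% with a floor below 2. The difference from the matched share was 0.165 percentage points for higher measured windows, and it reversed to -0.007 in 50 kb windows and to -0.102 in the lowest single set. It was 0.021 without 216 to 218 Mb, with no stretch removed from the other autosomes. It was 0.015 at an FDR of 0.001 and 0.644 in the highest single set. For lower measured windows it was -0.443, reversed to 0.107 in the highest single set and moved to -1.102 at an FDR of 0.1. It was -0.088 in 50 kb windows and -0.04 without the minimum. The matched difference in median change kept its sign, at 0.024 to 0.079. Where no cause is named, the cause was not tested. The alternatives without a minimum, without 216 to 218 Mb, without chromosome 1 and with the implied error but no recentring were chosen after seeing the data.

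No paired analysis was possible because the files give 1 mean per treatment and no values per library. Leaving out a replicate was not run for the same reason. Depth per library is unknown, so levels near the floor have no interval.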
